A study of Mus musculus with 24 samples.

Results

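Avp, Oxt, Trh, Cartpt, Pomc, Hcrt, Pmch and Gal, which encode precursors of peptides made by hypothalamic neurons, were followed in striatal tissue of wild type (WT) and R6/1 mice. The 8 genes were taken by symbol from 6 comparison tables that share 24340 genes, and each gene was found in every table. They were chosen with their differences between the groups known, so the differences given below are a description and carry no test. R6/1 mice are hemizygous for exon 1 of human huntingtin with an expanded CAG repeat, a model of Huntington's disease, and the WT mice were their littermates, all males on a C57BL/6J background. RGFP109, an inhibitor of the histone deacetylases HDAC1 and HDAC3, was injected into the abdomen at 30 mg/kg on 5 occasions a week for 3 weeks, or 23 days in total. Vehicle mice received dimethyl sulfoxide diluted in saline on the same schedule. Treatment began at 11 to 14 weeks of age, and striatum was taken 18 h after the last injection, at 14 to 17 weeks. There were 5 WT-vehicle, 6 R6/1-vehicle, 6 WT-RGFP109 and 7 R6/1-RGFP109 libraries, each from the striatum of 1 hemisphere.

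The tables hold 1 value per group, in FPKM (fragments scaled by transcript length and by the mapped fragments of a library), which the authors pooled over the libraries of the group. No spread between mice can be read from them, and the depth is unknown. The study also lists values per library for some of these genes, whose values are not printed or analysed here. In that list most of the Avp and Trh signal of every group but R6/1-vehicle comes from a single library or a pair of libraries, largely the same ones for both genes, while Cartpt is spread more evenly. The levels and folds of Avp and Trh below rest on those libraries. A higher group value is therefore not a value shared by the mice of the group. For Avp and Trh in particular, the differences below describe pooled values and not a shift in each mouse. The spread of Oxt, Pomc, Hcrt, Pmch and Gal over the libraries is not described here, and their values may rest on few libraries as well. Each group occurs in 3 tables that were scaled separately, and the level given here for a group is the mean of its 3 values. The range given beside a level reflects that scaling alone.

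Peptide hormones are cut from longer precursors in secretory granules and released by neurons to act on G protein-coupled receptors. Avp encodes vasopressin, which acts on water balance and social behaviour, and Oxt encodes oxytocin, of parturition, lactation and bonding. Both are made by magnocellular neurons of the supraoptic and paraventricular nuclei, from neighbouring genes that arose by duplication. Trh encodes thyrotropin-releasing hormone, the hypothalamic signal to the pituitary-thyroid axis. Cartpt, for cocaine- and amphetamine-regulated transcript, and Pomc, the precursor of melanocortins and beta-endorphin, mark neurons that restrain feeding. Hcrt, for the orexins that maintain wakefulness, and Pmch, for melanin-concentrating hormone, are made in separate neurons of the lateral hypothalamus. Gal encodes galanin, an inhibitory peptide. Cartpt is also transcribed by cells outside the hypothalamus, the nucleus accumbens included, and is not the only one of these genes to be so.

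The windows of 250 bases before the transcription start are shown for Avp, Oxt and Trh, which had the widest ranges of group values, and for Cartpt, the most abundant, since the level of each was lowest in the same group. They come from RefSeq on GRCm38.p6, the mm10 assembly, and are read 5′ to 3′ on the strand of the gene. They lie at chr2:130582589-130582838 for Avp (minus strand), at chr2:130575919-130576168 for Oxt (plus strand), at chr6:92244651-92244900 for Trh (minus strand) and at chr13:99900684-99900933 for Cartpt (minus strand). Capitals mark every match to 4 motifs, each searched on both strands. The first is the E-box CACGTG. The second is the nuclear receptor half-site AGGTCA. The third is the cyclic AMP response element TGACGTCA. The fourth is the TATA motif TATAAA. The first and the third read the same on both strands, and no matches overlapped in these windows.
Avp: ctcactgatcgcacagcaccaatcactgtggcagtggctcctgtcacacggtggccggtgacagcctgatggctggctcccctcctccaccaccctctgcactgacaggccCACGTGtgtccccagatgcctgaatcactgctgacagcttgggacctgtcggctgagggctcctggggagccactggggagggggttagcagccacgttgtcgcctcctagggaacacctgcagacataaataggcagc
Oxt: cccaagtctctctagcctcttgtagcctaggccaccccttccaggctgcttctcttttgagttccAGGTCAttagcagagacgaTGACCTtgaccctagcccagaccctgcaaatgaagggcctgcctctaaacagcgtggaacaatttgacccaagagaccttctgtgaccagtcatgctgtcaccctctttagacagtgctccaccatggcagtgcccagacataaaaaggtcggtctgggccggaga
Trh: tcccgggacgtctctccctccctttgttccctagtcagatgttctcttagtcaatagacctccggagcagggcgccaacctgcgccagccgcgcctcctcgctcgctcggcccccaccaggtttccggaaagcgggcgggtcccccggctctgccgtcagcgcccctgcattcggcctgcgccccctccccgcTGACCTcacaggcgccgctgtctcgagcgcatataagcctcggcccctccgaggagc
Cartpt: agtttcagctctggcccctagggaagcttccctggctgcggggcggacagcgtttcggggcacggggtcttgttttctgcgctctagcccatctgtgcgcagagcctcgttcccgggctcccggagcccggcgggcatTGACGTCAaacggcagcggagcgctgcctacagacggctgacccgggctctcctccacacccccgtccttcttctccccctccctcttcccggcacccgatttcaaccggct

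All 8 genes matched a window in the RefSeq table. The E-box, a sequence bound by circadian clock factors among others, occurred in the Avp window from 139 to 134 bases before the start and in 6.02% of all 32851 windows. The Avp distances run to the RefSeq start beside the window, which lies upstream of the 5′ end of the Avp locus given below, 130582541. The half-site, bound by receptors for thyroid and steroid-like hormones, occurred in 3 of the 8 windows and in 14.0% of all windows. Oxt held it at 185 to 180 and, on the other strand, at 166 to 161 bases before the start. Trh held it at 57 to 52 bases and Pomc at 62 to 57 bases. The cyclic AMP response element was found in the Cartpt window alone of the 8, from 112 to 105 bases before the start, against 1.55% of all windows. Pomc, Hcrt and Pmch held TATAAA, found in 12.4% of all windows, and none of the 4 motifs was in the Gal window. No motif was shared by all 8 windows. These are matches of letters, and no binding was measured.

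Avp and Oxt lie tail to tail on chromosome 2 of mm10, with Oxt from 130576169 to 130577053 and Avp from 130580677 to 130582541 in the tables. In the GENCODE M21 annotation 3565 bases separate their ends, with no other annotated gene wholly between them. Their transcripts are 577 bases (Avp) and 537 bases (Oxt) long, and both have 3 exons. The longest run that both transcripts hold without a mismatch has 127 bases and is shown because reads that fall within it cannot be assigned to either gene by sequence. It spans exons 1 and 2 in both, and both of its ends are in the coding sequence. The genomic ends of the run are chr2:130581133-130582411 for Avp and chr2:130576328-130576715 for Oxt, intron included.
Shared run of Avp and Oxt: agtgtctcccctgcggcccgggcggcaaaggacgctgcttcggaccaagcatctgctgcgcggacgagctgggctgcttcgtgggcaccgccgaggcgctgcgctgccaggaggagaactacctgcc

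At the read length of 51 bases, 77 read positions were common to both transcripts, 14.6% of the 527 positions of Avp and 15.8% of the 487 positions of Oxt. A part of the Oxt value could therefore be Avp reads, or the reverse, and how such reads were divided cannot be read from the tables. For Trh, Cartpt, Pomc, Hcrt and Gal, no read position was shared with another annotated transcript. Pmch lies within Parpbp on the opposite strand, and 337 of its 699 positions, or 48.2%, were also in Parpbp transcripts. The library kit does not mark strand, so reads there cannot be told apart by strand. The locus that the tables give for Pmch, on chromosome 10 from 88091072 to 88146941, extends far past the annotated end of Pmch at 88092375.

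Cartpt, Trh and Avp were the most abundant of the 8 genes, and Hcrt the least. Cartpt, on chromosome 13 from 99898483 to 99900683, had a level at or above that of 72.7% of all genes, by the mean of the 4 groups. The share was 64.5% for Avp, 64.2% for Trh, 50.4% for Pomc, 49.1% for Gal, 43.7% for Oxt, 37.6% for Pmch and 33.7% for Hcrt. At least 1 FPKM was reached by 5 of the 8 genes in WT-vehicle, 4 in R6/1-vehicle, and with RGFP109 5 in WT and 6 in R6/1 mice. The median of the 8 was 2.48, 1.10, 2.04 and 2.66 FPKM in that order, below the median of 7.37 to 7.65 FPKM over the 17264 genes above 0.1 FPKM in any group.

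**Figure D1:**
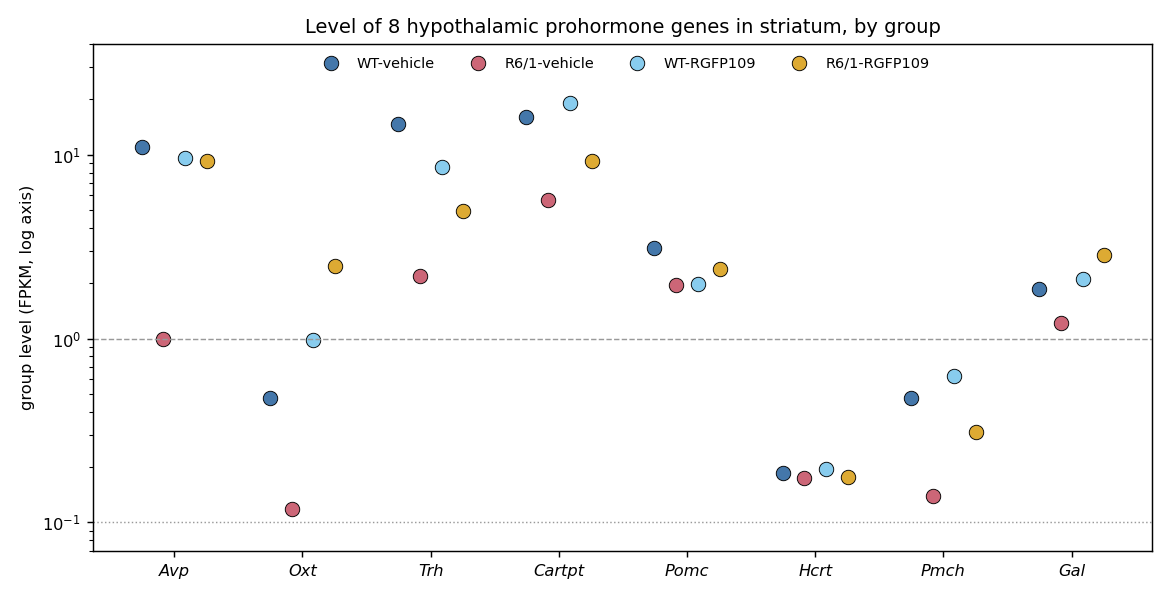
Group level of the 8 genes in FPKM on a log axis, each point the mean of the 3 deposited values of a group, with no error bar because the tables hold pooled values. The dashed line marks 1 FPKM and the dotted line 0.1 FPKM. The R6/1-vehicle point is the lowest of its gene for all 8, from 0.118 FPKM for Oxt to 5.66 FPKM for Cartpt, while the 4 Hcrt points lie between 0.175 and 0.195 FPKM.

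The lowest level of each of the 8 genes was that of R6/1-vehicle. The same was true of 23.9% of the 17264 genes, and since the genes were chosen on these values the count is a description. Avp had 11.0 FPKM in WT-vehicle, 0.995 in R6/1-vehicle, and with RGFP109 9.60 in WT and 9.22 in R6/1 mice. A single group stood apart for Avp, with the other groups near each other. The 3 tables placed R6/1-vehicle between 0.983 and 1.02 FPKM and WT-vehicle between 10.7 and 11.1 FPKM, so the scaling was small beside this difference. Oxt had 0.473 FPKM in WT-vehicle, 0.118 in R6/1-vehicle, and with RGFP109 0.977 in WT and 2.48 in R6/1 mice. Its order differed from that of Avp, since both treated groups lay above both vehicle groups and the treated R6/1 group was the highest. The level of Avp was 23.3 times that of Oxt in WT-vehicle, 8.42 times it in R6/1-vehicle, and with RGFP109 9.83 times it in WT and 3.72 times it in R6/1 mice, on the FPKM scale, which is per length.

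Trh, on chromosome 6 from 92242061 to 92244650, had 14.6 FPKM in WT-vehicle, 2.18 in R6/1-vehicle, and with RGFP109 8.59 in WT and 4.94 in R6/1 mice. Both R6/1 groups were below both WT groups for this releasing hormone, and the treated groups lay between the vehicle groups. Cartpt had 16.1 FPKM in WT-vehicle, 5.66 in R6/1-vehicle, and with RGFP109 19.1 in WT and 9.19 in R6/1 mice. For this peptide both R6/1 groups were also below both WT groups, and within each genotype the treated group was the higher one. Pmch followed the same order as Cartpt at a much lower level, with 0.477 FPKM in WT-vehicle, 0.139 in R6/1-vehicle, and with RGFP109 0.626 in WT and 0.311 in R6/1 mice.

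Pomc, on chromosome 12 from 3954945 to 3960643, had 3.11 FPKM in WT-vehicle, 1.96 in R6/1-vehicle, and with RGFP109 1.97 in WT and 2.40 in R6/1 mice. WT-vehicle was the high group for Pomc, and R6/1-vehicle and WT-RGFP109 had nearly equal values. Gal, on chromosome 19 from 3409917 to 3414457, had 1.85 FPKM in WT-vehicle, 1.21 in R6/1-vehicle, and with RGFP109 2.11 in WT and 2.83 in R6/1 mice. Galanin thus shared its order of groups with oxytocin, over a narrower range of 2.35-fold against 21.0-fold. Hcrt, on chromosome 11 from 100761693 to 100762931, had 0.186 FPKM in WT-vehicle, 0.175 in R6/1-vehicle, and with RGFP109 0.195 in WT and 0.177 in R6/1 mice, a range of 1.11-fold. From the lowest to the highest group the values spanned 11.1-fold for Avp, 6.69-fold for Trh, 4.52-fold for Pmch, 3.38-fold for Cartpt and 1.59-fold for Pomc.

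The comparison of R6/1-vehicle with WT-vehicle sets the pooled values of the 2 genotypes side by side without the drug. Differences between 2 groups are log2 ratios of FPKM after adding 0.05, from the table of that pair, and a gene was counted as past the limit at an absolute value above 0.5. Avp was 0.983 FPKM in R6/1-vehicle and 11.1 in WT-vehicle in this table, a log2 ratio of -3.43 or 11.3-fold lower without the added 0.05. The log2 ratio was -2.75 for Trh, -1.66 for Oxt, -1.54 for Cartpt, -1.51 for Pmch, -0.68 for Pomc, -0.63 for Gal and -0.09 for Hcrt. Every gene of the 8 but Hcrt was past the limit and lower in R6/1-vehicle, 7 of 8, where 13.4% of 16972 genes over 0.1 FPKM were. Among genes whose larger value lay below 1 FPKM, as for Oxt, Pmch and Hcrt, 38.0% were past the limit in either direction, against 15.5% of those from 1 to below 20 FPKM. This split by level was added after the data had been seen. The median of the 8 was -1.52, against -0.02 over all these genes. Fewer cells with a transcript and less of the transcript per cell cannot be told apart in bulk tissue.

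Between the treated groups, R6/1-RGFP109 against WT-RGFP109, the 8 genes no longer shared a direction. Oxt was past the limit and higher, with 2.45 FPKM in R6/1-RGFP109 and 0.990 in WT-RGFP109, a log2 ratio of 1.27. Cartpt (-1.09), Pmch (-0.94) and Trh (-0.83) were past the limit and lower. The log2 ratios of Gal (0.38), Pomc (0.24), Avp (-0.09) and Hcrt (-0.14) were within the limit. The counts of 1 higher and 3 lower stand beside 5.39% and 11.7% of 16954 genes. Trh, Cartpt and Pmch were past the limit and lower in R6/1 mice in both pairs of groups, although Pmch was within it in the treated pair with 0.5 FPKM added (-0.49). For Avp the pooled values of the treated groups were 9.11 and 9.73 FPKM.

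In R6/1 mice, the comparison of RGFP109 with vehicle gave the largest ratio for the neurohypophysial hormones. Oxt was 2.54 FPKM in R6/1-RGFP109 and 0.121 in R6/1-vehicle, a log2 ratio of 3.92. Avp was 9.45 and 1.02 FPKM, a log2 ratio of 3.15. Gal (1.20), Trh (1.16), Pmch (0.94) and Cartpt (0.69) were also past the limit and higher, while Pomc (0.28) and Hcrt (0.01) were within it. With 0.5 FPKM added Pmch was within it too (0.35). The 6 of 8 that were past the limit and higher stand beside 2.62% of 16840 genes, a share that was fixed by the choice of the genes and is not read further. Where the larger value was below 1 FPKM, 16.9% of genes were past the limit in either direction, against 2.99% from 1 to below 20 FPKM. R6/1-vehicle enters both this ratio and the ratio to WT-vehicle, so a low value in that group alone makes one negative and the other positive.

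In WT mice the same treatment gave mixed values. Oxt was past the limit and higher in WT-RGFP109, with 0.954 FPKM against 0.462 in WT-vehicle, a log2 ratio of 0.97. Trh (-0.76) and Pomc (-0.65) were past the limit and lower. Pmch (0.36), Cartpt (0.24), Gal (0.18), Hcrt (0.05) and Avp (-0.20) were within it. The backgrounds were 3.19% for higher and 4.92% for lower, of 16957 genes. Where the larger value was below 1 FPKM, as for Oxt here, 9.04% were past the limit and higher and 15.9% lower. Oxt was therefore the 1 gene of the 8 past the limit and higher with RGFP109 in both genotypes, from levels below 1 FPKM in both vehicle groups. With 1 FPKM added its ratio in WT mice was 0.42, within the limit, and that in R6/1 mice was 1.66.

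**Figure D2:**
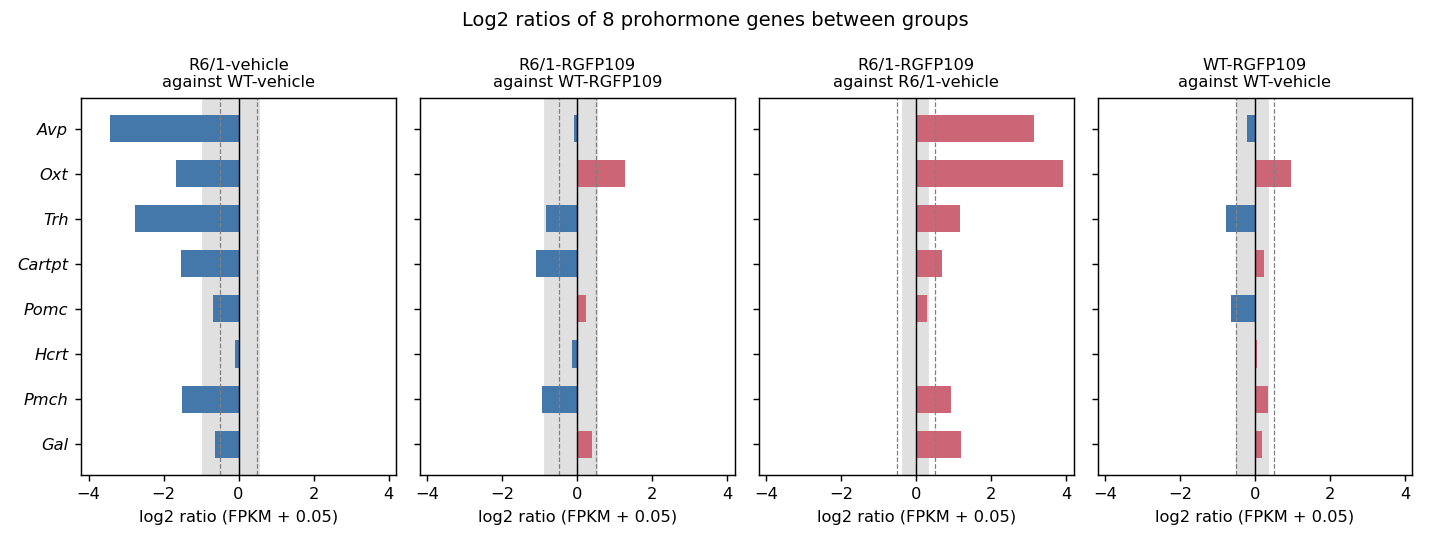
Log2 ratio of group FPKM (0.05 added) of the 8 genes in 4 comparisons, with blue bars for lower and red bars for higher values in the first group named. The grey band spans the middle 90% of all genes over 0.1 FPKM and dashed lines mark the limit of 0.5. In R6/1-vehicle against WT-vehicle the bars run from -3.43 for Avp to -0.09 for Hcrt, and in R6/1-RGFP109 against R6/1-vehicle from 0.01 for Hcrt to 3.92 for Oxt.

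The ratio of treated to vehicle in R6/1 mice less the ratio in WT mice was 3.35 for Avp, 2.95 for Oxt, 1.93 for Trh, 1.02 for Gal, 0.93 for Pomc, 0.58 for Pmch, 0.45 for Cartpt and -0.04 for Hcrt, on the log2 scale. It was above 0.5 for 6 of the 8 genes and for 6.10% of 17264 genes. For Trh and Pomc the ratio was above 0 in R6/1 mice and past the limit below it in WT mice. These differences were not tested, since each group is 1 value.

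Across the diagonal of the design, R6/1-RGFP109 against WT-vehicle, the log2 ratio was 2.24 for Oxt, 0.56 for Gal, -0.08 for Hcrt, -0.29 for Avp, -0.40 for Pomc, -0.58 for Pmch, -0.84 for Cartpt and -1.59 for Trh. Oxt and Gal were past the limit and higher, where 5.42% of 16982 genes were, and Pmch, Cartpt and Trh lower, where 13.8% were. Trh and Cartpt thus stayed below the untreated WT value in treated R6/1 mice, and Oxt and Gal lay above it. Against WT-RGFP109, R6/1-vehicle had log2 ratios from -3.24 for Avp to -0.04 for Pomc, and 6 of the 8 were past the limit and lower, beside 11.4% of 16949 genes.

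The gene nearest to each of the 8 in pattern was sought by the Euclidean distance between centred log2 levels over the 4 groups, among 14104 genes of at least 1 FPKM in a group. This describes 4 pooled points per gene. Pmch was nearest to Cartpt (distance 0.21), followed by Insl5, an insulin-like peptide gene (0.24), and Tm6sf2 (0.28). Cartpt was nearest to Tm6sf2 (0.16), Hkdc1 (0.19) and Crh (0.20), the gene of corticotropin-releasing hormone. Crh had 3.04 FPKM in WT-vehicle, 1.23 in R6/1-vehicle, and with RGFP109 4.04 in WT and 1.71 in R6/1 mice. Cartpt, Pmch and Crh therefore shared the order of the 4 groups.

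Trh was nearest to Myl4 (0.52), which encodes a myosin light chain, Mir25 (0.52) and Robo3 (0.53), an axon guidance receptor gene. Pomc was nearest to Gpc4 (0.10), Nkx6-2 (0.12) and Nfix (0.13), with Nkx6-2, a transcription factor gene of oligodendrocytes, at 18.6, 12.6, 13.1 and 14.4 FPKM in the order of groups used above. Gal was nearest to Cbln1 (0.20), which encodes a synaptic organiser, and Snord12 (0.39). Hcrt, whose levels hardly varied, was nearest to Uck2, Abr and Asphd1 (0.00 to 0.01). For Avp the nearest were Snora78 (0.75), Mir5116 (0.90) and Mir7056 (0.90), and for Oxt Mir5116 (1.26), Mir6944 (1.39) and Mir421 (1.49), all short RNA genes whose FPKM values are uncertain in libraries of this kind. Among 12599 protein-coding genes, a restriction added after the data had been seen, Tmem210 (1.37), Trh (1.46) and Cort (1.48) were nearest to Avp, and Pcp2 (1.73), Avp (1.85) and Pcdha4 (2.00) to Oxt. No gene of the 14104 came closer than 0.75 to Avp or 1.26 to Oxt, and these 2 neighbours on the chromosome were 1.85 apart.

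Of 17 receptor genes, 12 were over 0.1 FPKM in at least 1 group and 5 were not. Mchr1, the receptor for melanin-concentrating hormone, was the most abundant, with 24.3 FPKM in WT-vehicle, 14.8 in R6/1-vehicle, and with RGFP109 23.3 in WT and 14.0 in R6/1 mice. Its log2 ratio was -0.75 between the vehicle groups and -0.76 between the treated groups, and -0.06 in WT and -0.08 in R6/1 mice for the treatment. The receptor was thus far above its ligand gene Pmch in every group. Trhr2, a receptor for thyrotropin-releasing hormone, had 5.28, 2.70, 5.07 and 2.16 FPKM in the same order, with log2 ratios of -0.99 and -1.24 between the genotypes and -0.06 in WT and -0.32 in R6/1 mice for the treatment. Avpr1a, the V1a vasopressin receptor gene, had 0.0445 FPKM in WT-vehicle and 0.260 in R6/1-vehicle, a log2 ratio of 1.69 at levels near the floor, and with RGFP109 it had 0.176 in WT and 0.222 in R6/1 mice.

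Oxtr, the oxytocin receptor gene, had 2.35 FPKM in WT-vehicle, 1.66 in R6/1-vehicle, and with RGFP109 2.20 in WT and 1.66 in R6/1 mice. Its treatment ratio was -0.01 in R6/1 mice, beside 3.92 for Oxt. Among the 12 receptor genes over 0.1 FPKM, 4 were past the limit and lower and 1 higher in R6/1-vehicle against WT-vehicle, where 13.4% and 5.84% of all genes were. Between the treated groups 4 were lower and 0 higher, beside 11.7% and 5.39% of all genes. In WT-RGFP109 against WT-vehicle 4 were past the limit, Avpr1a (1.25) and Mc4r (0.61) higher and Trhr (-0.98) and Mc5r (-0.98) lower. Of all genes 8.11% were past it in either direction. Among genes whose larger value lay below 1 FPKM, as for Avpr1a and Mc5r, the share was 25.0%. In R6/1-RGFP109 against R6/1-vehicle 1 was past the limit, Mc5r (-0.80), a melanocortin receptor gene, and 11 were within it. Of all genes 5.77% were past it there, and 16.9% of those below 1 FPKM. The melanocortin receptor genes Mc3r and Mc4r, through which Pomc peptides act in the brain, had 0.464 and 0.702 FPKM in R6/1-RGFP109 and 0.467 and 0.636 in R6/1-vehicle.

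**Figure D3:**
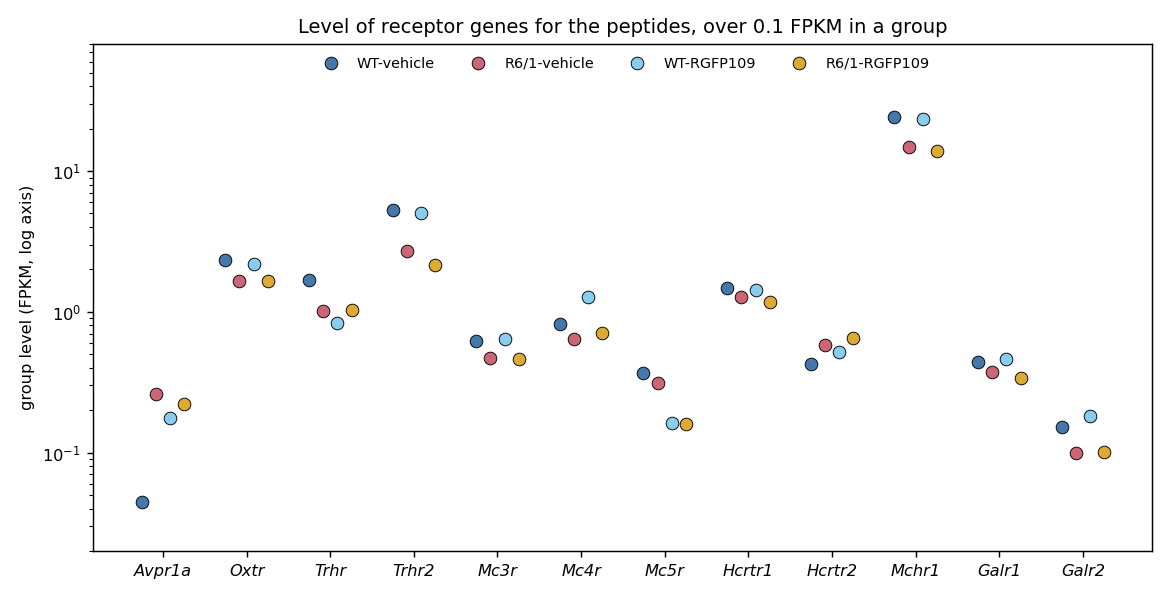
Group level in FPKM on a log axis of the 12 receptor genes over 0.1 FPKM in at least 1 group, each point the mean of the 3 deposited values of a group. For Mchr1 (24.3, 14.8, 23.3 and 14.0 FPKM) and Trhr2 (5.28, 2.70, 5.07 and 2.16 FPKM) both R6/1 points lie below both WT points.

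The 15 genes of enzymes and granins that process, store or clear these peptides were above 1 FPKM in every group. Cpe, the carboxypeptidase that trims peptide ends, was the most abundant, with 1471 FPKM in WT-vehicle, 1178 in R6/1-vehicle, and with RGFP109 1391 in WT and 1181 in R6/1 mice. Between R6/1-vehicle and WT-vehicle 3 of the 15 were past the limit and 12 within it, near the share over all genes, of which 19.2% were past it. Lnpep (0.62), a peptidase that degrades oxytocin and vasopressin, was past it and higher, and Trhde (-0.59), which degrades thyrotropin-releasing hormone, and the granin gene Chgb (-0.53) were lower. All 15 were within the limit for RGFP109 against vehicle in both genotypes, where 5.77% of all genes in R6/1 and 8.11% in WT mice were past it, with ratios from -0.11 to 0.37 in R6/1 mice and from -0.18 to 0.22 in WT mice.

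Of 23 other peptide genes with hypothalamic expression, several of which neurons of the striatum or neocortex also transcribe, 18 were over 0.1 FPKM in the table of the vehicle groups. In R6/1-vehicle 12 of these were past the limit and lower, and 1, Nts for neurotensin (0.71), was higher, where 13.4% and 5.84% of all genes were. The lower ones included Vip (-2.05), Crh (-1.30), Npy (-1.12) and Tac2 (-1.08), which encode vasoactive intestinal peptide, corticotropin-releasing hormone, neuropeptide Y and neurokinin B. Npy had 236 FPKM in WT-vehicle, 111 in R6/1-vehicle, and with RGFP109 235 in WT and 112 in R6/1 mice, and Sst, for somatostatin, had 646, 366, 611 and 358 FPKM. For RGFP109 in R6/1 mice 15 of 18 were within the limit, and 5.77% of all genes were past it. Ghrh (1.48), for growth hormone-releasing hormone, was higher, from 0.162 to 0.542 FPKM, and Kiss1 (-0.94), for kisspeptin, and Ucn3 (-0.91), for urocortin 3, were lower. The median of these genes was 0.08 for that comparison, beside 1.05 for the 8 genes and 0.00 for all genes.

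**Figure D4:**
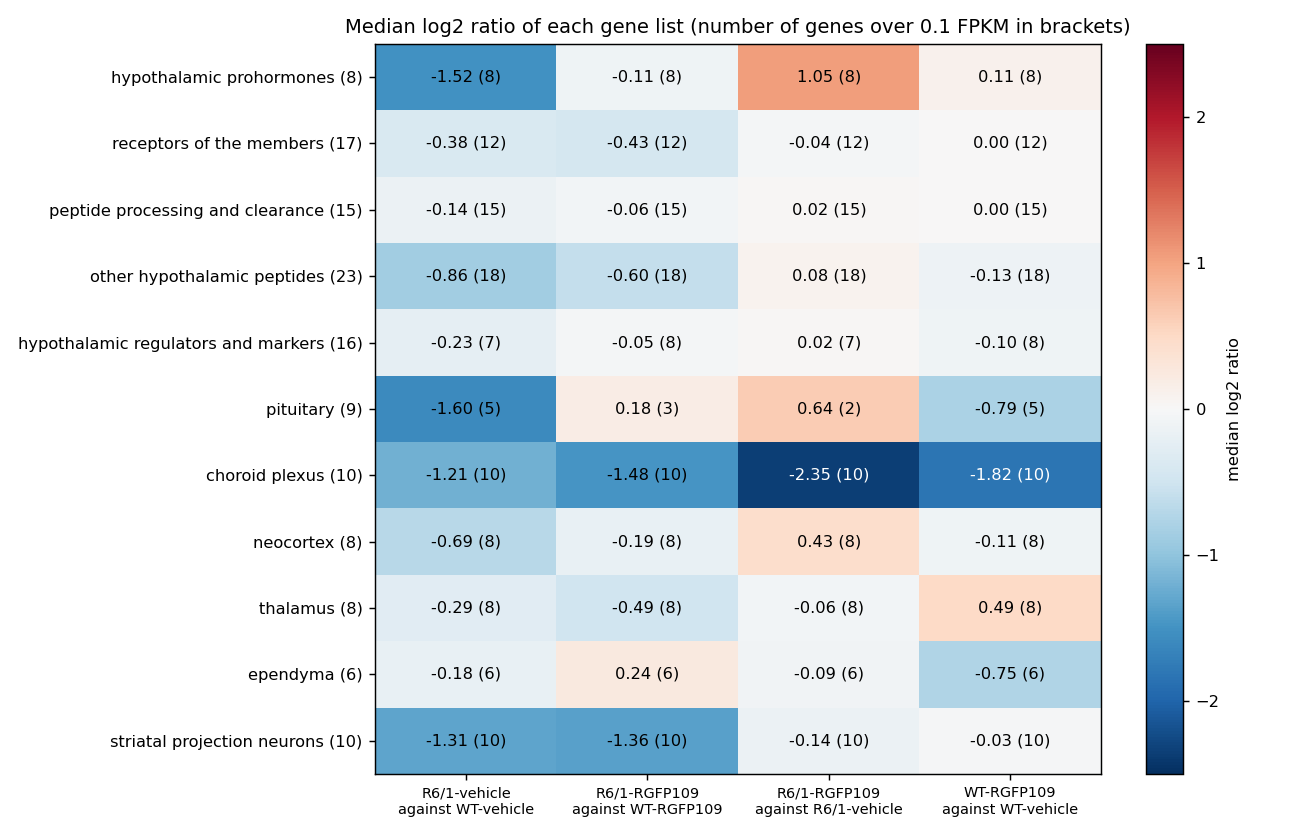
Median log2 ratio of each gene list in 4 comparisons, with the size of the list beside its name and the number of its genes over 0.1 FPKM in each cell. The hypothalamic prohormones had medians of -1.52, -0.11, 1.05 and 0.11 from left to right, and the choroid plexus genes -1.21, -1.48, -2.35 and -1.82. Medians over part of a list, as for the pituitary genes, are shown for completeness only.

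Most of the 16 transcription factor and marker genes of the hypothalamus were below 1 FPKM, with 2 or 3 of them at or above it in a group. Of these, Arnt2, which is broadly expressed in brain, had 64.0 to 66.0 FPKM, and Nkx2-1, also a gene of striatal interneurons, had 1.78 to 2.01 FPKM. Sim1 and Otp, which specify the vasopressin and oxytocin neurons of the paraventricular nucleus, had at most 0.159 and 0.312 FPKM in any group, with Otp at 0.211 FPKM or more in each, above the level of Hcrt. Sim1 had 0.0701 FPKM in WT-vehicle, 0.0504 in R6/1-vehicle, and with RGFP109 0.159 in WT and 0.0397 in R6/1 mice. Nkx2-4 was listed at 0 in all groups, and Hmx2 and Hmx3 were listed at 0 in all but R6/1-RGFP109, where they had 0.0808 and 0.0939 FPKM. Irs4, a marker of hypothalamic neurons, had 0.574, 0.458, 0.504 and 0.861 FPKM in the order of groups used above. Irs4 was lowest in R6/1-vehicle, as were 23.9% of 17264 genes. Irs4 was also past the limit and higher with RGFP109 in R6/1 mice (0.84), as 6 of the 8 prohormone genes were. Of the 7 marker genes over 0.1 FPKM in that comparison, it was the 1 past the limit and higher. Fezf1 (-0.73), with 0.271 FPKM in R6/1-vehicle and 0.144 in R6/1-RGFP109, was the 1 lower, and 5 were within the limit. The median of the 7 was 0.02, and 2.62% of all genes were past the limit and higher and 3.14% lower. Among genes whose larger value lay below 1 FPKM, as for Irs4 and Fezf1, these shares were 6.95% and 9.90%. Hdc, for histidine decarboxylase of histamine neurons, had 1.40, 0.963, 0.836 and 0.890 FPKM. The summed level of the 16 genes was 68.4 to 70.8 FPKM in the 4 groups, nearly all of it Arnt2. The 9 pituitary genes were each below 1 FPKM in every group. Their summed level was 2.06 FPKM in WT-vehicle, 0.609 in R6/1-vehicle, and with RGFP109 1.26 in WT and 1.03 in R6/1 mice. Gh, for growth hormone, had 0.870 FPKM in WT-vehicle and 0.566 in WT-RGFP109, was listed at 0 in R6/1-vehicle and had 0.0761 in R6/1-RGFP109. Other pituitary genes had other orders of the groups. Tshb had 0.634, 0.217, 0.294 and 0.558 FPKM, and Lhb, lowest in WT-vehicle, had 0.232, 0.338, 0.311 and 0.366 FPKM.

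Markers of other neighbouring tissues moved between the groups. The summed level of 10 choroid plexus genes was 1481 FPKM in WT-vehicle, 645 in R6/1-vehicle, and with RGFP109 321 in WT and 41.7 in R6/1 mice. All 10 were past the limit and lower with RGFP109 in both genotypes, where 3.14% of all genes in R6/1 and 4.92% in WT mice were. Ttr, for transthyretin, made up most of the summed level, with 1428, 615, 302 and 30.8 FPKM, and none of the 10 was listed at 0. This order differs from that of each of the 8 prohormone genes, for which R6/1-vehicle was lowest. The summed level of 8 neocortical genes was 356, 204, 332 and 258 FPKM, lowest in R6/1-vehicle as for the prohormones. Slc17a7, for a vesicular glutamate transporter, made up most of it, with 294, 163, 274 and 202 FPKM. Cux2, of upper-layer neurons, was lowest in WT-vehicle, with 6.69 FPKM against 7.48 in R6/1-vehicle. In R6/1-RGFP109 against R6/1-vehicle all 8 neocortical genes had ratios above 0, with a median of 0.43. Of the 8, 3 were past the limit and higher, where 2.62% of all genes were. Between the vehicle groups 6 of the 8 were past the limit and lower in R6/1-vehicle, where 13.4% of all genes were. The ratio was -1.23 for Fezf2, a gene of deep-layer neurons. The 8 thalamic genes summed to 40.1, 33.6, 55.4 and 34.0 FPKM and the 6 ependymal genes to 30.5, 26.1, 17.9 and 22.8 FPKM. Calb2 was the largest part of the thalamic sum, with 21.2, 15.1, 29.8 and 16.6 FPKM. The thalamic genes did not share a direction in R6/1-vehicle against WT-vehicle. Slc17a6 (0.68) and Gbx2 (0.66) were past the limit and higher, where 5.84% of all genes were. Prkcd (-0.57) and Calb2 (-0.52) were lower, where 13.4% were, and 4 were within the limit. The part of tissue at the edges of the dissection in the values of the 8 prohormone genes was not tested. All 10 markers of striatal projection neurons were above 1 FPKM in every group, with Ppp1r1b, for DARPP-32, at 1137, 452, 1030 and 403 FPKM. Their ratios were below 0 in R6/1-vehicle against WT-vehicle for 10 of 10, and 8 were past the limit and lower, where 13.4% of all genes were. For RGFP109 in R6/1 mice 10 of 10 were within the limit, near the share over all genes, of which 5.77% were past it.

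Pmch was set beside Parpbp, the gene on the opposite strand at its locus, because reads could be shared. Parpbp had 0.192 FPKM in WT-vehicle, 0.258 in R6/1-vehicle, and with RGFP109 0.152 in WT and 0.213 in R6/1 mice. Its log2 ratio was 0.32 in R6/1-vehicle against WT-vehicle and -0.23 in R6/1-RGFP109 against R6/1-vehicle, opposite in sign to Pmch (-1.51 and 0.94) in both. Both Parpbp ratios were within the limit, at levels near the floor. How shared reads were divided is unknown, and the part of Parpbp reads in the Pmch values was not tested.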

How the data were processed

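Libraries of striatal RNA (Illumina TruSeq RNA kit, which does not mark strand) were sequenced in 2 pools of 12 as single reads of 51 bases. Per the study's methods and the submitters' processing notes, the authors aligned reads with STAR 2.5.0b to RefSeq transcripts of mm10, computed FPKM with Cufflinks 2.2.1 and compared each pair of groups with Cuffdiff. The authors deposited 6 tables with 1 FPKM value per group and gene, normalized within the pair. The split of libraries over the pools was not used. The fold change, test statistic, p-value, q-value, significance and status columns, which hold the authors' own comparisons, were not used. Values per library listed in the study's supplement were read to describe in words how Avp, Trh and Cartpt are spread, and none entered a calculation. With 1 pooled value per group in the tables, no test, SD or interval is given, and read depth is unknown.

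The 24340 genes common to all tables were read. A ratio was log2 of (FPKM + 0.05) over (FPKM + 0.05) in the table of the pair, which understates changes of low genes. Backgrounds used genes above 0.1 FPKM in either group and a limit of 0.5. The ratio and counting steps were tested on simulated data. The genes, the lists and the comparisons were chosen with earlier results of these data known. Named genes were the 8 members, genes of each list past a log2 ratio of 1 in a main comparison with at least 1 FPKM in a group or otherwise up to 4 of the most abundant of the list, and the 3 genes nearest in pattern. Avpr1a, Oxtr, Trhr, Mchr1, Mc3r, Mc4r, Mc5r, Lnpep, Trhde, Chgb, Sst, Ghrh, Ucn3, Sim1, Otp, Hmx2, Hmx3, Nkx2-4, Fezf1, Tshb, Lhb, Slc17a7, Cux2, Calb2, Slc17a6, Gbx2, Prkcd and Parpbp were named after their values had been seen, and not every gene that the rule allows is named. The result of 1 gene near in pattern is not reported here. Promoter windows came from RefSeq (GRCm38.p6), and shared read positions were counted between GENCODE M21 transcripts. Python 3.11.15, numpy 2.4.6, pandas 2.3.3 and matplotlib 3.10.9 were used.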

Additional observations from a re-analysis of the deposited data

How the results depend on the processing

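No paired analysis was possible because the tables hold 1 pooled value per group, and for the same reason no library was left out of these values. Of 224 single values under alternatives, 0 changed direction, which was counted only where the reported value was past the limit. A larger added amount cannot change the direction of a ratio of 2 groups, so that outcome was fixed in advance there. On the log2 scale 67 moved by at least 0.1, all with a larger pseudocount (29 with 0.5 FPKM and 38 with 1 FPKM). Adding more shrinks ratios of low genes by construction. None of the 8 genes moved with scaling by the median ratio of all genes or through the other tables. Little movement was possible in either. The median ratio was near 0 on the log2 scale, and a group's values differed between its 3 tables by a nearly constant factor. The number of the 8 genes past the limit fell with 1 FPKM added from 7 to 3 in R6/1-vehicle against WT-vehicle, from 3 to 1 in WT-RGFP109 against WT-vehicle and from 5 to 3 in R6/1-RGFP109 against WT-vehicle, where it was also 3 with 0.5 FPKM added. With either amount it fell from 6 to 5 for RGFP109 in R6/1 mice (Pmch 0.35 and 0.21), from 4 to 3 between the treated groups (Pmch -0.49 and -0.32) and from 6 to 5 for the difference of the treatment ratios (Pmch 0.15 and 0.07), and with 0.5 FPKM from 7 to 6 between the vehicle groups (Gal -0.49). Counts of all genes past the limit depended on the limit and the minimum. With a limit of 1, at least 1 FPKM, 0.5 FPKM added and 1 FPKM added, in that order, they were 1050, 2094, 1946 and 1572 for R6/1-vehicle against WT-vehicle (3266 as reported), 899, 1816, 1676 and 1302 for R6/1-RGFP109 against WT-RGFP109 (2892), 388, 445, 422 and 371 for R6/1-RGFP109 against R6/1-vehicle (971), 550, 581, 552 and 441 for WT-RGFP109 against WT-vehicle (1376), 1042, 2074, 1927 and 1547 for R6/1-RGFP109 against WT-vehicle (3259), and 907, 1835, 1668 and 1342 for R6/1-vehicle against WT-RGFP109 (2942). With no minimum they were 1483 for R6/1-RGFP109 against R6/1-vehicle and 2076 for WT-RGFP109 against WT-vehicle.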
